A study of Homo sapiens with 42 samples.

Results

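The genes described here are 9 transcripts of the interleukin-1 (IL-1) family: the ligands IL1A, IL1B, IL33 and IL18, the antagonist IL1RN, and the receptor chains IL1R1, IL1RAP, IL1R2 and IL1RL1. They were chosen by name, and all 9 are present among the 28266 gene symbols of the table of raw read counts. RNA sequencing of poly(A) transcripts gave 42 libraries in 12 groups from IMR90 human lung fibroblasts, whose genotype is given as WT. In 18 libraries (3 per group) the cells were IMR90 ER:RAS, which express a fusion of RAS with the oestrogen receptor. This fusion was activated with 100 nM 4-hydroxytamoxifen (4OHT), which induces oncogene-induced senescence (OIS), or left inactive in DMSO. In the other 24 libraries (4 per group) IMR90 cells received 50 µg/ml bleomycin, an agent that breaks DNA and induces senescence, for 24 h, or DMSO. All groups were cultured for 7 days and then received 1 µg/ml doxycycline, controls included, to switch on either a control shRNA or an shRNA that targets COPB2 (COPB2 shRNA 1 or COPB2 shRNA 2). COPB2 is a subunit of the COPI coat of Golgi transport vesicles. Cells were collected 72 h later, at day 10. The labels number the replicates but do not say whether they came from separate cultures. The study's legend for its enrichment plots of COPB2 knockdown gives n = 3 and describes n as independent experiments. How these relate to the replicate numbers is not given. P-values therefore measure the spread between these libraries, which may in part be technical.

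IL-1α and IL-1β, the products of IL1A and IL1B, bind the receptor chain IL1R1, which then recruits the accessory chain IL1RAP. MYD88, the IRAK kinases and TRAF6 relay the signal to NF-κB. IL1RN encodes a ligand that occupies IL1R1 without recruiting IL1RAP, and IL1R2 is a decoy that binds ligand without signalling. IL-33 uses IL1RL1 (ST2) with IL1RAP, and IL-18 uses a receptor pair of its own. IL-1β and IL-18 are made as precursors that caspase-1 cuts, whereas IL-1α is active as the full precursor, and RNA levels do not report on that cleavage. In senescent fibroblasts the family is known as an upstream part of the senescence-associated secretory phenotype (SASP), the mixture of cytokines and proteases that these cells release.

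Levels are given as CPM, the read count of a gene scaled to a common library total. Totals ran from 13148194 to 23597310 counts per library. A floor of 3 counts, the limit that a count of 0 allows, corresponded to 0.254 CPM in the smallest library and 0.110 CPM in the largest, and it covers counting error only because reads carry no molecular identifiers. The target of the shRNAs, COPB2, lay between 267 and 620 CPM in the 14 control shRNA libraries and between 33.9 and 122 CPM in the other 28, without overlap. All 10 fibroblast markers examined were present in every library, and their summed level was 11369 to 35472 CPM. Of the 12 leukocyte and myeloid markers, CD68 was present in every library, at 12.1 to 120 CPM, and CD14 was at or under 3 counts in 2 of the 42 libraries, whereas each of the other 10 was at or under 3 counts in at least 23, among them PTPRC in 25 (genes picked after their values were seen). Replicate 4 of the bleomycin groups stood apart from replicates 1 to 3 in several of the genes described here, and the fold changes, levels per kilobase and list counts with bleomycin are therefore also given without the 6 IMR90 libraries numbered 4. That choice was made with the values known, and p-values without those libraries do not allow for it.

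IL1A and IL1B both lie on chromosome 2 and are read from the minus strand. In the RefSeq annotation of GRCh38.p14, IL1A spans chr2:112773925-112784493 and IL1B chr2:112829751-112836779. The same chromosome carries IL1R2, IL1R1, IL1RL1 and IL1RN, while IL1RAP lies on chromosome 3, IL33 on chromosome 9 and IL18 on chromosome 11. The promoters of the ligand genes are shown because both genes were close to silent in DMSO and rose in both kinds of senescence. Each sequence is the 250 bases before the annotated start site, 5′ to 3′ on the gene's strand, from RefSeq (GRCh38.p14), at chr2:112784494-112784743 for IL1A and chr2:112836780-112837029 for IL1B. Capitals mark matches, on either strand, to the letters TGANTCA (AP-1), TTGCNNAA (C/EBP) and TATAAA (the TATA box), or to the NF-κB motif.
IL1A: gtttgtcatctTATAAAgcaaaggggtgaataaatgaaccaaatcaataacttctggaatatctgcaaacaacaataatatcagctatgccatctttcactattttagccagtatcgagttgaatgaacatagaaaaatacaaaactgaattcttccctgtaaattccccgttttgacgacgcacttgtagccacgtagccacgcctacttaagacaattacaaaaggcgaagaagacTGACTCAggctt
IL1B: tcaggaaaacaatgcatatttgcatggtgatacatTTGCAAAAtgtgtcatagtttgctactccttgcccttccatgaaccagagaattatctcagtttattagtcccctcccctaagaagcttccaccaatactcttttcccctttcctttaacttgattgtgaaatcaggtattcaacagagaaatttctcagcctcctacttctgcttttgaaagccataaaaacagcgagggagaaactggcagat
The IL1A sequence held an AP-1 match that began at position -12 from the start site and a TATA match at position -239. The IL1B sequence held 1 C/EBP match, at position -215. Among 35116 annotated promoter windows of 300 bases, which reach 50 bases past the start site, 7.71% held an AP-1 match, 10.5% a C/EBP match, 11.5% a TATA match and 11.3% an NF-κB match. Of the members with a window at their outermost start site (IL1A, IL1B, IL1R2, IL1RAP, IL1RL1 and IL33), only IL1R2 had an NF-κB match, and IL1RAP and IL33 had no match to any of these motifs. A match describes letters and does not show that a factor bound there.

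In OIS, IL1B and IL1A, both at about 1 CPM or less in DMSO, became the most abundant members of the family. IL1B had 0.815, 0.887 and 0.962 CPM in the 3 DMSO libraries with the control shRNA and 10122, 8088 and 6509 CPM in the 3 4OHT libraries. The mean therefore went from 0.888 ± 0.0735 to 8240 ± 1811 CPM (SD, n = 3 each), and no 4OHT library came near a DMSO library. The log2 fold change was 13.06 ± 0.40 (SE; adjusted p = 2.85e-11, edgeR quasi-likelihood test with Benjamini-Hochberg adjustment over 14297 genes tested, as for every adjusted p below unless another test is named). IL1A had 0.0510, 0 and 0.385 CPM in DMSO and 111, 327 and 348 CPM with 4OHT. Replicate 1 with 4OHT was the lowest of its group but still far above all DMSO libraries, and the log2 fold change was 10.55 ± 1.02 (adjusted p = 1.24e-06). In bulk RNA such as this, a change in the number of cells that express a gene and a change in RNA per cell cannot be told apart.

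IL33, an IL-1 family ligand stored in the nucleus, rose less and less evenly. It had 0.662, 0.253 and 0.770 CPM in DMSO and 1.35, 8.06 and 14.01 CPM with 4OHT, so that replicate 1 lay well below the other two while still above DMSO. The log2 fold change was 3.68 ± 1.00 (adjusted p = 0.00906). IL1RN, the receptor antagonist, had no read in any of the 21 DMSO libraries of either line. With 4OHT and the control shRNA it had 3.34, 3.97 and 4.63 CPM, at least 24.5-fold above the level that 3 counts would give in a DMSO library (adjusted p = 2.06e-05). IL18 was not tested in this line, since it had at most 12 counts in these DMSO libraries and at most 1 count with 4OHT.

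The receptor chains went in opposite directions. IL1R1, the signalling receptor of IL-1α and IL-1β, had 208, 163 and 180 CPM in DMSO and 13.9, 50.2 and 76.5 CPM with 4OHT, all below every DMSO library. It fell by 2.04 ± 0.51 on the log2 scale (adjusted p = 0.00570). IL1RAP, the accessory chain shared by the receptors of IL-1 and IL-33, had 2.85, 1.96 and 3.37 CPM in DMSO and 3.52, 8.33 and 17.5 CPM with 4OHT. The groups did not overlap, but the lowest 4OHT library was only just above the highest DMSO library, and the log2 fold change was 1.76 ± 0.63 (adjusted p = 0.0392). This call was lost without DMSO replicate 1 (adjusted p = 0.0801), DMSO replicate 2 (0.0978) or 4OHT replicate 3 (log2 fold change 1.05, adjusted p = 0.187). The decoy IL1R2 had at most 2 counts in these 6 libraries and IL1RL1 at most 4, so neither was tested.

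Counted over the family, 6 of the 9 members had enough reads to be tested in ER:RAS cells, and all 6 passed the threshold with the control shRNA, 5 upward and 1 downward, where 35.7% of all tested genes passed. A gene silent in DMSO enters this test only through the group in which it is present. With COPB2 shRNA 1, 5 of 6 passed (36.9% of all genes) and with COPB2 shRNA 2, 4 of 6 (36.9%). IL1B rose by 12.70 ± 0.40 and 13.43 ± 0.41 and IL1A by 9.38 ± 0.95 and 9.12 ± 0.94 on the log2 scale with shRNA 1 and shRNA 2, while IL1R1 fell by 2.46 ± 0.52 and 2.42 ± 0.52. IL1RN was at least 19.3-fold and at least 12.1-fold above the floor. The members that did not pass were IL1RAP, with log2 fold changes of 1.22 ± 0.61 (adjusted p = 0.139) and 1.26 ± 0.62 (0.127), and IL33 with shRNA 2, with 2.39 ± 0.98 (0.0691). IL33 passed with shRNA 1 (3.03 ± 1.01, adjusted p = 0.0274), but not when DMSO replicate 1 (0.0882), DMSO replicate 2 (0.0779) or 4OHT replicate 3 (0.124) of those groups was left out. IL1RL1 reached 5, 7 and 20 counts with 4OHT and shRNA 2, the most of any group in this line, against at most 2 counts in DMSO.

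**Figure D1:**
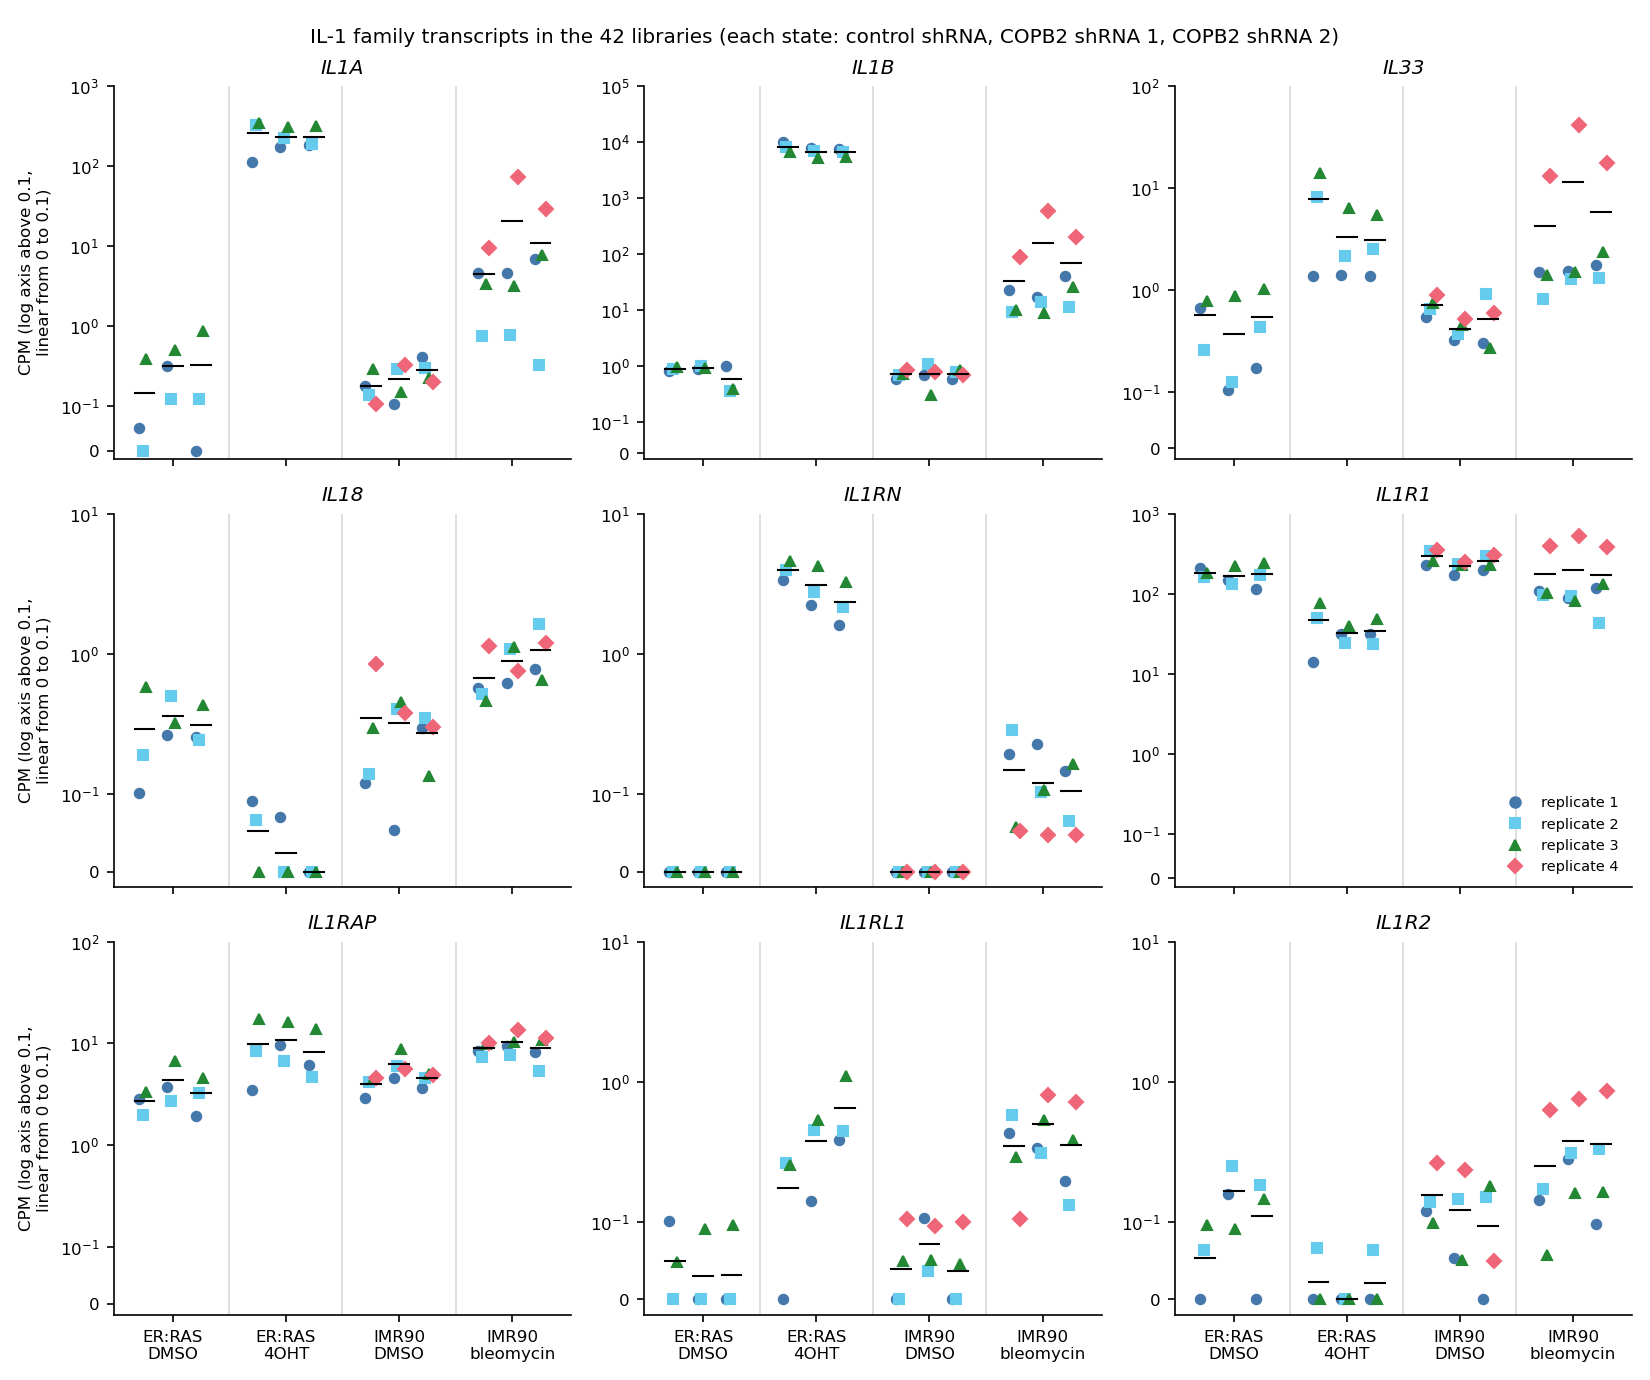
Level of each of the 9 genes in every library, in CPM (vertical axis, logarithmic above 0.1 and linear from 0 to 0.1), by cell state and, within a state, by shRNA in the order control, COPB2 shRNA 1, COPB2 shRNA 2; symbols are single libraries by replicate number and bars are group means. IL1B lies between 5276 and 10122 CPM in the 9 libraries with 4OHT, and in the bleomycin groups replicate 4 (diamonds) is the highest library for IL1A, IL1B, IL33, IL1R1 and IL1R2.

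Bleomycin also raised IL1A and IL1B, to levels far below those in OIS and with a wide spread among replicates. IL1B had 0.598, 0.688, 0.734 and 0.842 CPM in DMSO with the control shRNA and 22.6, 9.41, 10.1 and 89.1 CPM with bleomycin in replicates 1 to 4. All 4 bleomycin libraries lay above all DMSO libraries, and the log2 fold change was 5.47 ± 1.30 (adjusted p = 0.00261 over 14783 genes tested). IL1A had 0.179, 0.138, 0.294 and 0.105 CPM in DMSO and 4.55, 0.746, 3.34 and 9.44 CPM with bleomycin. Replicate 2 was the lowest bleomycin library and replicate 4 the highest, and the log2 fold change was 4.58 ± 1.35 (adjusted p = 0.0125). Without the 6 libraries numbered 4, the log2 fold changes were 4.38 ± 0.54 for IL1B (adjusted p = 4.67e-05) and 3.79 ± 0.99 for IL1A (adjusted p = 0.0110).

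IL33 had 0.538, 0.642, 0.734 and 0.895 CPM in DMSO and 1.48, 0.803, 1.38 and 13.1 CPM with bleomycin. Replicate 4 alone lay far above the rest, and the log2 fold change of 2.53 ± 1.14 did not pass the threshold (adjusted p = 0.0984). Without the libraries numbered 4 it was 0.94 ± 0.38 (adjusted p = 0.0947). IL18 had 0.120, 0.138, 0.294 and 0.842 CPM in DMSO and 0.575, 0.516, 0.460 and 1.14 CPM with bleomycin, which overlapped (log2 fold change 0.91 ± 0.53, adjusted p = 0.206, and 1.46 ± 0.61, 0.0997, without the libraries numbered 4). IL1RN was found at 1 to 5 counts in every bleomycin library of the 3 shRNA groups, against 0 in every DMSO library, a level around the floor that gives no fold change.

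IL1R1 behaved differently in replicate 4 than in the other replicates. It had 231, 346, 257 and 354 CPM in DMSO and 109, 97.1, 102 and 399 CPM with bleomycin, so that 3 bleomycin libraries lay below every DMSO library and 1 above. Over the 4 replicates the log2 fold change was -0.79 ± 0.60 (adjusted p = 0.354). Without the libraries numbered 4, IL1R1 fell by 1.43 ± 0.31 (adjusted p = 0.00310). The bleomycin library left out was the 1 above DMSO, and its value was known, so this p-value is not an independent test. IL1RAP was the most even member: 2.93, 4.22, 4.45 and 4.53 CPM in DMSO became 8.43, 7.34, 9.95 and 10.2 CPM, a log2 fold change of 1.11 ± 0.24 (adjusted p = 0.00105), and of 1.15 ± 0.27 without the libraries numbered 4 (adjusted p = 0.00622). IL1RL1, the IL-33 receptor, had at most 2 counts in DMSO and 2 to 10 counts with bleomycin, and the groups overlapped (lowest bleomycin library 0.104 CPM, highest DMSO library 0.105 CPM). Its mean with bleomycin was 2.24-fold above the floor (adjusted p = 0.00785). It had too few reads to be tested without the libraries numbered 4.

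With the control shRNA, 4 of the 7 members tested passed, all upward, where 31.2% of all genes passed. With COPB2 shRNA 1 and with COPB2 shRNA 2, 6 of 7 passed upward, against 35.2% and 40% of all genes. In the IMR90 DMSO libraries alone, IL1A, IL1RL1 and IL18 had too few reads to be tested. They therefore entered these comparisons only through the bleomycin groups. IL1B rose by 7.71 ± 1.40 with shRNA 1 and 6.52 ± 1.34 with shRNA 2 on the log2 scale, and IL1A by 6.43 ± 1.32 and 5.25 ± 1.28. With the libraries numbered 4 left out these values were 4.197 ± 0.53 and 5.10 ± 0.55 for IL1B and 3.82 ± 0.98 and 4.01 ± 0.93 for IL1A, and all 4 passed. Leaving out bleomycin replicate 4 of the shRNA 1 group alone gave 4.12 for IL1B and 3.55 for IL1A. For IL1A with shRNA 2, the bleomycin library of replicate 2 (0.329 CPM) lay within the DMSO range of 0.199 to 0.416 CPM. IL33 passed with both COPB2 shRNAs (4.74 ± 1.22, adjusted p = 0.00422, and 3.45 ± 1.18, adjusted p = 0.0235), and both values were smaller and missed the threshold when bleomycin replicate 4 of the group alone was left out (1.73, adjusted p = 0.184, and 1.76, 0.231). With all 6 libraries numbered 4 left out they were of similar size, 1.89 ± 0.40 and 1.87 ± 0.39, and passed (adjusted p = 0.00267 and 0.00212). The shRNA 2 call for IL33 was also lost without DMSO replicate 1 (0.0531) or DMSO replicate 3 (0.0614). IL18 passed with 1.39 ± 0.51 (0.0367) and 1.91 ± 0.53 (0.00600), the first of which rested on any of 5 libraries: without DMSO replicate 1, 2 or 4 or bleomycin replicate 2 or 3 its adjusted p was 0.0577 to 0.112. IL1RAP passed with 0.67 ± 0.23 (0.0290) and 0.94 ± 0.24 (0.00328), and the first was lost without DMSO replicate 1 (0.103), 2 (0.0676) or 4 (0.0789) or bleomycin replicate 4 (0.124). IL1R1 did not pass with either (-0.17 ± 0.60 and -0.62 ± 0.60).

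Without the libraries numbered 4, 22.4%, 24.6% and 30% of all genes passed with the control shRNA, shRNA 1 and shRNA 2. IL1A and IL1B passed in all 3 comparisons, and so did IL1R1, which fell by 1.26 ± 0.30 with shRNA 1 (adjusted p = 0.00617) and by 1.29 ± 0.30 with shRNA 2 (0.00488). For IL1R1 these calls rest on leaving out bleomycin libraries in which it was known to be high. All 9 bleomycin libraries numbered 1 to 3 held 43.4 to 134 CPM of IL1R1, below each of the 9 DMSO libraries of the same numbers. The counts of members that passed were 4, 5 and 6 of the 6 tested. IL18 passed with both COPB2 shRNAs (1.57 ± 0.52, adjusted p = 0.0371, and 1.95 ± 0.55, adjusted p = 0.0138), as IL33 did. IL1RAP passed with shRNA 2 (0.87 ± 0.27, adjusted p = 0.0238) but not with shRNA 1 (0.49 ± 0.27, adjusted p = 0.209).

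**Figure D2:**
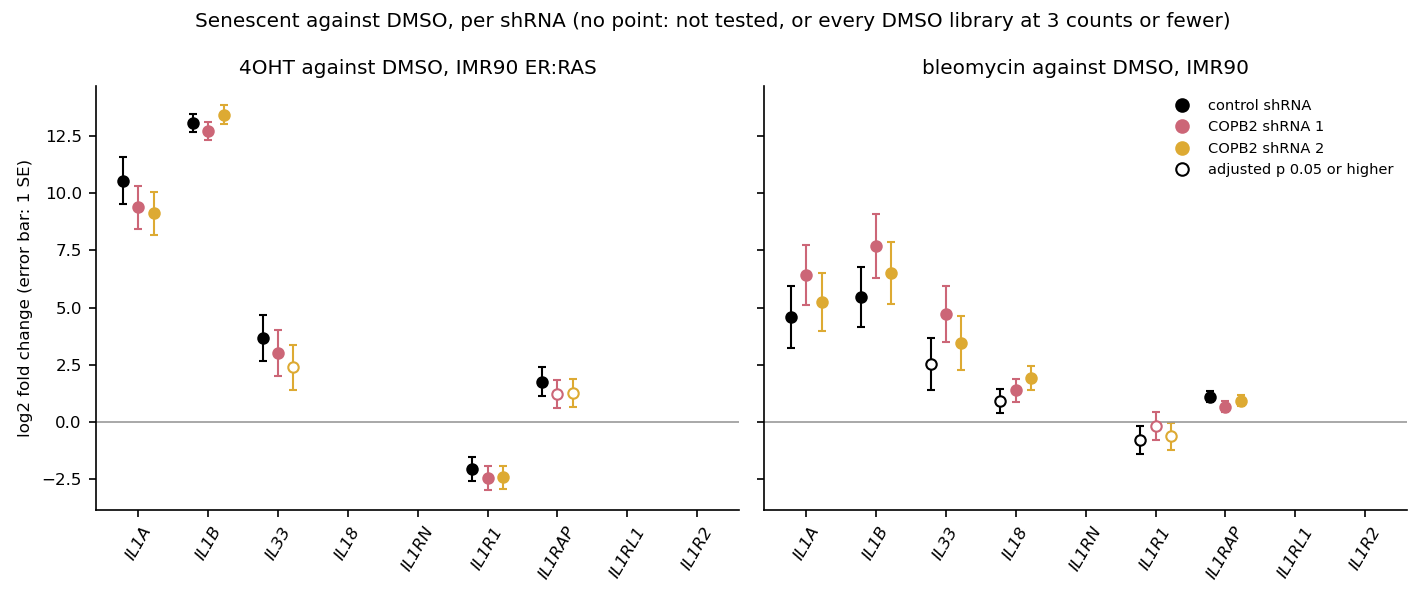
Log2 fold change of each gene, senescent against DMSO, with its standard error (vertical axis), for 4OHT in IMR90 ER:RAS cells (left) and bleomycin in IMR90 cells (right) and for each shRNA (colours); filled symbols passed the threshold and open symbols did not. IL1B stands at 12.70 to 13.43 on the left and 5.47 to 7.71 on the right, and IL1R1 is below 0 in all 6 comparisons but passed only on the left.

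Set per kilobase of exon, so that genes can be compared, the order of the family differed between states. In DMSO IL1R1 was the highest member, at 25.8 ± 3.23 CPM per kb in ER:RAS cells and 41.7 ± 8.71 in IMR90 cells with the control shRNA. With 4OHT the order was IL1B (2738 ± 602 CPM per kb), IL1A (130 ± 65.0), IL1R1 (6.58 ± 4.41), IL33 (2.40 ± 1.95), IL1RN (1.06 ± 0.172) and IL1RAP (0.872 ± 0.633). IL1B, IL1A and IL1R1 were separated by more than their spread, whereas the levels from IL1R1 down to IL1RAP each lay within the spread of a neighbour. With bleomycin the order was IL1R1 (24.8 ± 20.8), IL1B (10.9 ± 12.6), IL1A (2.24 ± 1.81), IL33 (1.29 ± 1.83), IL1RAP (0.800 ± 0.119) and IL18 (0.258 ± 0.121), and each pair of neighbours from IL1R1 down to IL1RAP lay within their spread. Without replicate 4 the levels were 14.4 ± 0.816 for IL1R1, 4.66 ± 2.46 for IL1B, 1.43 ± 0.963 for IL1A, 0.765 ± 0.117 for IL1RAP, 0.376 ± 0.113 for IL33 and 0.198 ± 0.0220 for IL18 (n = 3), so that IL33 and IL1RAP changed places, as they also did with the length of the longest transcript (1.56 and 1.65). That length gave higher values for every member but IL1A, up to 5096 CPM per kb for IL1B, 1.86 for IL1RN and 1.80 for IL1RAP with 4OHT.

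The responses of the lines were compared directly as the log2 fold change with 4OHT minus that with bleomycin, with the control shRNA. The cell line, the agent and its timing all differ between these arms and cannot be told apart. The difference passed for 3 of the 9 members, where 20.3% of 15299 genes passed: IL1B (7.67 ± 1.57, adjusted p = 0.000457) and IL1A (6.04 ± 2.09, 0.0369) were higher in OIS, and IL18 was lower (adjusted p = 0.0267). IL18 had at most 1 count per library with 4OHT, so its difference has no fitted size here. Its mean in ER:RAS DMSO was 1.32-fold above the floor of the 4OHT libraries. The 3 DMSO libraries had 0.102, 0.190 and 0.577 CPM, so that value rested on the highest of them. Without the libraries numbered 4 the same genes passed, with 8.83 ± 0.66 for IL1B, 6.91 ± 1.61 for IL1A (adjusted p = 0.00293) and an adjusted p of 0.0172 for IL18, where 16.4% of all genes passed. The IL1A value kept its size but missed the threshold when any 1 of 9 of the 14 libraries was left out (5.56 to 6.15, adjusted p = 0.0503 to 0.118), and IL18 missed it without ER:RAS DMSO replicate 3, 4OHT replicate 2 or 3, or bleomycin replicate 4 (adjusted p = 0.0519 to 0.210). For IL18 both responses rest on at most 22 counts per library. IL33 (1.19 ± 1.58), IL1RAP (0.69 ± 0.56) and IL1R1 (-1.22 ± 0.83) did not pass.

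The spread among bleomycin replicates went with the replicate number in all 3 shRNA groups. In the group with COPB2 shRNA 1, IL1B had 16.9, 13.9, 8.98 and 591 CPM in replicates 1 to 4, and with COPB2 shRNA 2 it had 40.7, 11.2, 26.1 and 198 CPM. Replicate 4 was thus the highest library in each of the 3 shRNA groups, by 6.36-fold to 44.6-fold over the mean of the other replicates. IL1A had 4.57, 0.769, 3.19 and 73.0 CPM with shRNA 1 and 6.94, 0.329, 7.80 and 29.1 CPM with shRNA 2. Replicate 4 was again highest in all 3 groups, by 3.28-fold to 25.7-fold, and replicate 2 lowest in all 3, at 0.0225 to 0.129 of the mean of the others. IL33 had 1.52, 1.28, 1.49 and 41.2 CPM with shRNA 1 and 1.75, 1.31, 2.35 and 17.7 CPM with shRNA 2, and replicate 4 was 9.84-fold to 28.8-fold above the others.

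The receptors shared this order to different degrees. IL1R1 had 88.3, 94.9, 82.1 and 534 CPM with shRNA 1 and 118, 43.4, 134 and 387 CPM with shRNA 2, and replicate 4 was 3.89-fold to 6.04-fold above the mean of the others in the 3 groups. IL1R2, which was near the floor elsewhere, was highest in replicate 4 in each group with 12, 16 and 18 counts, or 3.01-fold to 5.00-fold above the others. IL1RAP varied least, by 1.19-fold to 1.47-fold, although replicate 4 was its highest library in all 3 groups too. IL18 and IL1RL1 had no such order: replicate 4 was highest in 1 and 2 of the 3 groups. IL1RN went the other way, with 1 count in replicate 4 of each group, the lowest of its group, at a depth that cannot show a difference.

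A test of the replicate number across the 12 bleomycin libraries, with the shRNA kept in the model, passed for 5 of the 7 members tested, where 59.9% of 14323 genes passed. The fitted levels of the replicate numbers spanned 5.70 on the log2 scale for IL1A (adjusted p = 1.35e-04), 4.52 for IL1B (9.83e-05), 4.35 for IL33 (8.04e-06), 2.51 for IL1R1 (8.15e-05) and 0.79 for IL1RAP (0.00893), while the median over all tested genes was 0.70. IL18 (adjusted p = 0.333) and IL1RL1 (0.688) did not pass. The standard deviation of log2 CPM within groups was 2.30 for IL1A, 2.08 for IL1B, 1.94 for IL33 and 1.20 for IL1R1, against a median of 0.385 and a 99th percentile of 1.28 over 14783 genes. The shares of genes with a smaller spread were 99.9% for IL1A and for IL1B, 99.8% for IL33 and 98.6% for IL1R1, but 45.5% for IL1RAP and 65.6% for IL18.

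**Figure D3:**
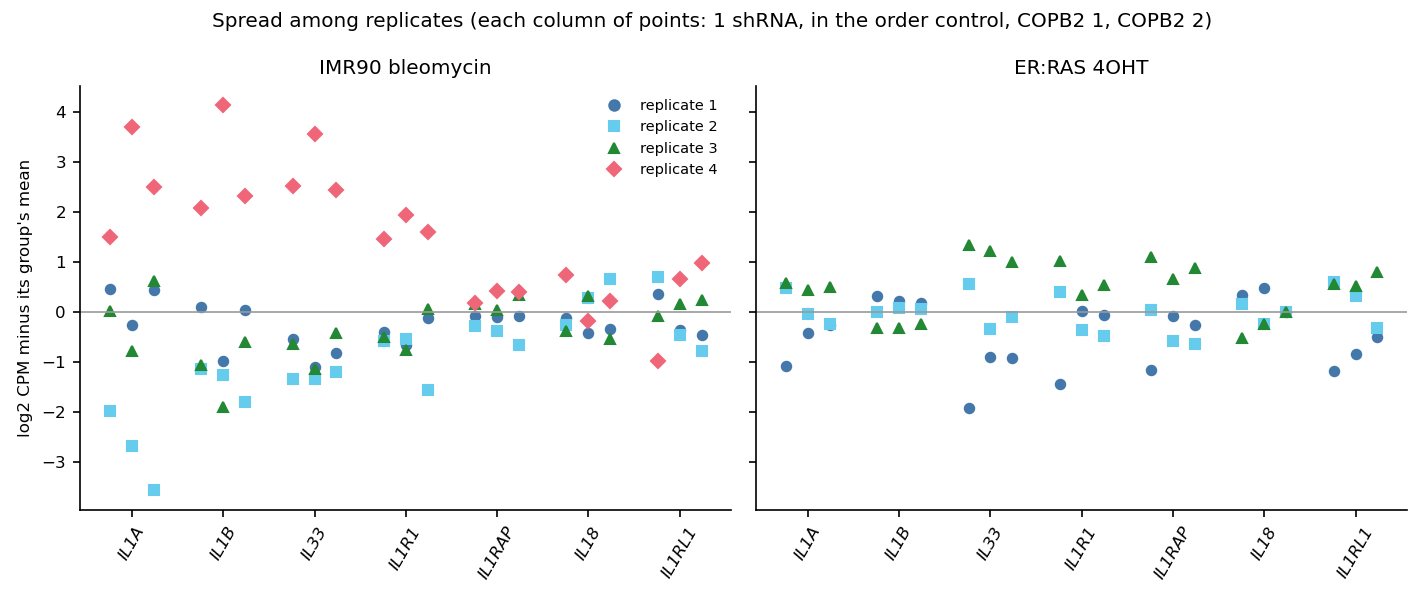
Log2 CPM of single libraries minus the mean of their group (vertical axis) in the bleomycin groups (left) and the 4OHT groups (right), for 7 of the 9 genes; each column of points is 1 shRNA and symbols give the replicate number. In the left panel replicate 4 is the top point in all 3 columns of IL1A, IL1B, IL33, IL1R1 and IL1RAP, and replicate 2 is the bottom point of IL1A.

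IL1A, IL1B, IL33 and IL1R1 had a smaller spread in IMR90 DMSO than with bleomycin. In these 12 DMSO libraries the standard deviation was 0.413 for IL1A, 0.411 for IL1B, 0.440 for IL33 and 0.283 for IL1R1, where 74.9%, 74.5%, 78.1% and 47.6% of genes had less. IL1A had 2 to 8, IL1B 6 to 30 and IL33 5 to 18 counts per DMSO library. At such counts the spread also depends on counting error and on the prior count, whose part in the difference was not tested. IL18 went the other way, at 0.767 in DMSO (97.0% of genes below it) against 0.479 with bleomycin, at 1 to 16 counts per DMSO library. In ER:RAS DMSO, IL1A stood at 1.204 (94.5%, at 0 to 18 counts), IL33 at 0.999 (90.3%, at 2 to 21 counts) and IL1RAP at 0.558 (68.3%). In IMR90 DMSO, IL1R1 and IL1RAP passed the test of the replicate number, of 4 members tested (75.4% of 13827 genes passed). In the 9 libraries with 4OHT, IL1B was among the steadier genes (0.277, with 23.7% of genes below it) and IL1A was at 0.640 (73.3%). IL33, at 1.29, had more spread than 98.0% of genes and was highest in replicate 3 with each shRNA, with 14.01, 6.39 and 5.45 CPM against 1.35 to 8.06 CPM in the other libraries. Of 6 members tested there, IL1A, IL1RN, IL1RAP and IL33 passed the test of the replicate number (42% of 13198 genes), with between 0 and 6 members passing when a single library was left out. In ER:RAS DMSO, IL1RAP and IL33 passed of 4 tested (55.6% of 13728 genes).

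**Figure D4:**
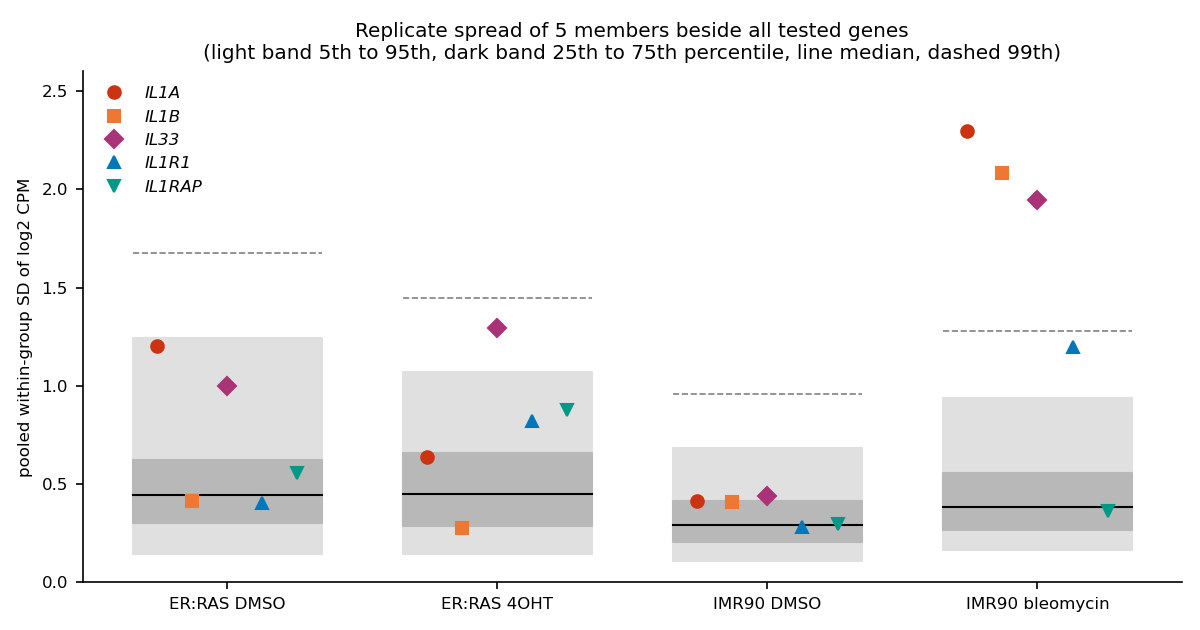
Pooled within-group standard deviation of log2 CPM (vertical axis) of 5 genes (symbols) in the 4 cell states, beside all tested genes of that state (light band, 5th to 95th percentile; dark band, 25th to 75th; line, median; dashed line, 99th). IL1A (2.30), IL1B (2.08) and IL33 (1.94) stand above the 99th percentile of their state only in the bleomycin libraries (1.28), where IL1RAP (0.363) lies near the median.

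Genes known to respond to IL-1 moved with these ligands across the bleomycin replicates. The list of 25 IL-1-responsive genes holds chemokines, cytokines, proteases and NF-κB feedback genes, and all 25 passed the test of the replicate number, which 59.9% of all genes passed. Replicate 4 was the highest library in all 3 shRNA groups for 22 of the 25 (88.0%), and for 5 of the 7 members tested (71.4%), against 1138 of 14783 genes (7.70%). The median ratio of replicate 4 to the mean of the others was 68.0 for CXCL5, 57.8 for CSF3 and 47.5 for CXCL3, and ICAM1 was the lowest of the list at 0.950. Of the receptors tested outside the 9 members, only IL18R1, a chain of the IL-18 receptor, had a high ratio, at 10.9. SIGIRR was at 1.01, IL1RL2 at 0.999 and IL1RAPL1 at 0.692. In the signal relay the inhibitory kinase homologue IRAK3 had 5.74, whereas MYD88 was at 0.812 and IRAK4 at 0.972. The genes named in this paragraph were picked after their values were seen. They share their libraries with the members, and the ratios describe the libraries numbered 4 without a test of what set them apart. Replicate 4 was singled out for its high values in several members, and the lists were chosen with earlier results known. The counts of genes highest in replicate 4 are therefore a description and not a test.

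Depth and cell type markers of those libraries are given beside these ratios. The bleomycin libraries numbered 4 had 17522375, 19409645 and 19264068 counts, within the range of all libraries. The summed leukocyte and myeloid markers were 61.1, 107 and 74.7 CPM in them and 55.5 to 99.9 CPM in the other 9. The fibroblast markers summed to 19793, 11369 and 14236 CPM against 16042 to 26442 CPM, so that replicate 4 was below all others with both COPB2 shRNAs, and the epithelial markers summed to 64.2, 65.4 and 69.3 CPM against 72.0 to 283 CPM. The endothelial markers summed to 34.3, 19.6 and 21.3 CPM in replicate 4 against 7.43 to 19.8 CPM in the other 9 libraries. That sum was highest in replicate 4 in each shRNA group, but its genes differed. The median ratio of replicate 4 to the others was 2.64 for TEK and 1.32 for KDR, but 0.616 for PECAM1 and 0.726 for VWF. Of these 4, only TEK passed the test of the replicate number. The part of these shifts in the cytokine levels was not tested.

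**Figure D5:**
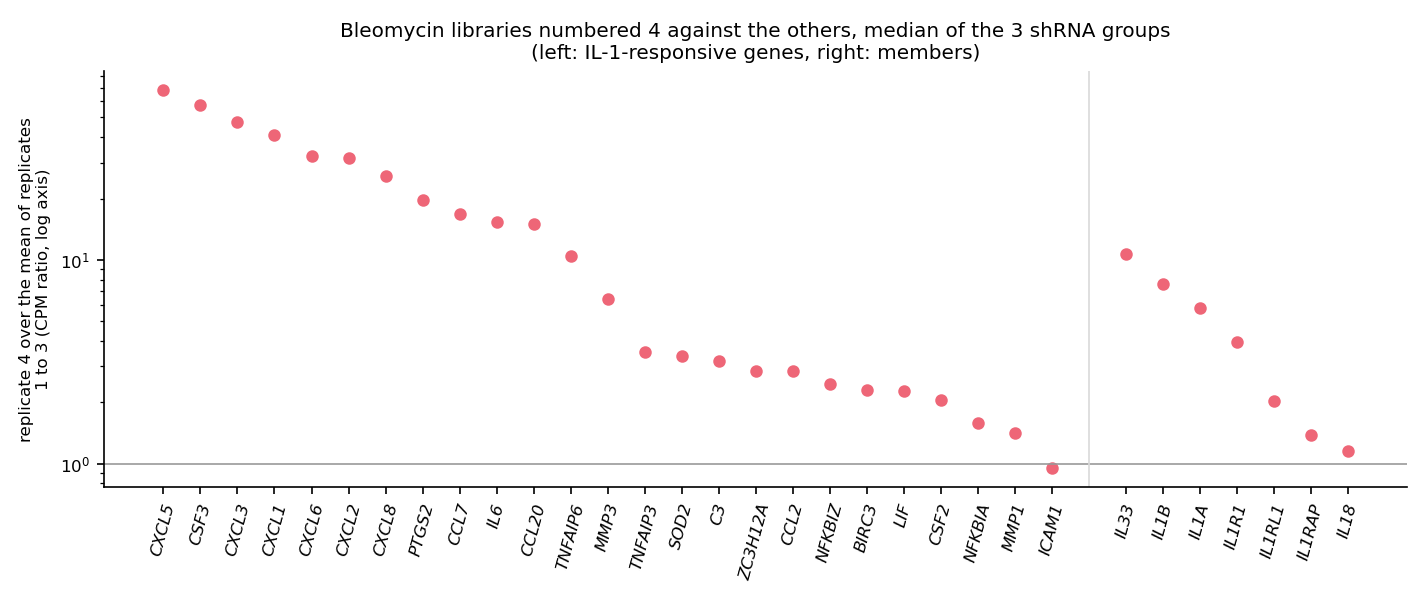
Ratio of replicate 4 to the mean of replicates 1 to 3 in bleomycin-treated cells, as the median of the 3 shRNA groups (vertical axis, logarithmic), for the 25 IL-1-responsive genes (left) and the 7 tested members (right); the horizontal line marks a ratio of 1. Ratios run from 68.0 for CXCL5 to 0.950 for ICAM1, and among the members from 10.7 for IL33 to 1.16 for IL18.

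Knockdown of COPB2 changed no member past the threshold in any of the 8 comparisons with the control shRNA. Few genes passed at all: in DMSO, 0.00699% of genes with either shRNA in ER:RAS cells and 0.00676% with either in IMR90 cells, with 4OHT 0.14% and 0.224%, and with bleomycin 0.00676% and 0.0744%, for shRNA 1 and shRNA 2. At an unadjusted p under 0.05 there was 1 member in IMR90 DMSO with shRNA 1 (IL1RAP), where 165 of 14783 genes lay under that value. In bleomycin with shRNA 1 there were 2 (IL1A and IL1B), where 208 of 14783 genes did. Elsewhere there were 0 members, where 116 to 997 genes did. DESeq2 called 0 members in each comparison. In OIS, IL1B differed by -0.32 ± 0.24 with shRNA 1 and -0.34 ± 0.24 with shRNA 2, that is, 7702, 6951 and 5276 CPM and 7433, 6766 and 5493 CPM against 10122, 8088 and 6509 CPM. IL33 differed by -1.25 ± 0.88 and -1.34 ± 0.89 (adjusted p = 1.00 for all 4 values), and its groups overlapped.

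In bleomycin-treated cells the means of IL1A and IL1B were higher with the COPB2 shRNAs, by 2.19 ± 1.00 and 2.29 ± 1.05 on the log2 scale with shRNA 1 (adjusted p = 1.00) and by 1.31 ± 0.98 and 1.10 ± 1.02 with shRNA 2 (adjusted p = 0.830 and 0.874). IL33 differed by 1.46 ± 1.00 and 0.50 ± 1.00. Without the libraries numbered 4 the shRNA 1 values were -0.040 ± 0.76 for IL1A and -0.089 ± 0.44 for IL1B, so the size and direction of that difference rested on those libraries. With shRNA 2 they were 0.81 ± 0.75 and 0.89 ± 0.44 (adjusted p = 1.00). The replicate numbers paired the IMR90 libraries within a treatment, and with the number as a block 0 members passed in the 4 IMR90 knockdown comparisons, while the count over all genes went from 11 to 28 with shRNA 2 in bleomycin, from 1 to 3 with shRNA 1 in bleomycin and from 1 to 2 with shRNA 2 in DMSO. The differences between the knockdown effect in senescent and DMSO-treated cells gave 0 members and 0% of all genes in the 4 tests made. At an unadjusted p under 0.05 there were 0 members, where 121 to 285 genes per test lay under that value.

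Other genes of the pathway were examined in lists of textbook members. In OIS with the control shRNA, 20 of the 25 IL-1-responsive genes rose and 0 fell, where 2210 of 14297 genes rose and 2888 fell (35.7% in all), with a median log2 fold change of 4.53 against -0.08 over all genes. CSF2 and CSF3, growth factors for granulocytes and macrophages, were at least 2914-fold and at least 2567-fold above the floor, and the matrix protease MMP3 rose by 12.17 ± 0.49 on the log2 scale. With bleomycin, 14 of the 25 rose and 0 fell, where 2275 of 14783 genes rose and 2339 fell (31.2% in all), with a median of 3.73 (3.13 with genes silent in DMSO set at their bound) against -0.01 over all genes. When the libraries numbered 4 were left out, 15 rose and 0 fell, with a median of 1.94, where 22.4% of all genes passed. The largest changes were MMP3 (8.17 ± 1.70), the neutrophil chemokines CXCL8 (7.77 ± 1.87) and CXCL3 (6.79 ± 2.20), which were 7.62 ± 0.86, 5.49 ± 0.66 and 3.01 ± 0.65 without the libraries numbered 4.

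The relay between receptor and NF-κB held few calls against the 35.7% of all genes in OIS and 31.2% with bleomycin. Of 18 signal relay genes 3 rose and 0 fell in OIS, namely the kinase IRAK2 (2.65 ± 0.19), the ubiquitin ligase PELI1 (1.82 ± 0.44) and the kinase IRAK1 (1.26 ± 0.35), with a median of 0.08. With bleomycin 1 rose, again IRAK2 (2.19 ± 0.31), and 2 fell, ECSIT (-0.93 ± 0.27) and TAB1 (-0.58 ± 0.20), with a median of -0.05, and both of these missed the threshold without the libraries numbered 4 (adjusted p = 0.102 and 0.200). Of the genes for ligand maturation and release, 5 of 12 tested rose and 2 fell in OIS, with a median of 0.54. The inflammasome sensor NLRP3 (2.87 ± 0.48), the membrane rupture protein NINJ1 (1.56 ± 0.24) and the calpain subunit CAPN2 (1.00 ± 0.22) rose most, while caspase-1 itself, CASP1 (-2.20 ± 0.42), and its decoy CARD16 (-1.63 ± 0.55) fell. With bleomycin 2 of 11 rose, NINJ1 (0.99 ± 0.23) and CAPN2 (0.56 ± 0.16), and 2 fell, the pore protein GSDMD (-1.29 ± 0.24) and the inflammasome adaptor PYCARD (-1.28 ± 0.32), with a median of 0.10.

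The same shares of all genes apply to the lists that follow. Among the 13 other IL-1 family genes, 7 were tested in OIS, and 4 rose and 1 fell (median 2.41). The antagonist IL36RN was at least 51.8-fold and the ligand IL36B at least 15.3-fold above the floor, IL1RAPL1 rose by 4.19 ± 0.99, and IL18BP, which binds and blocks IL-18, fell by 2.84 ± 0.35. With bleomycin 5 were tested (median 0.02), of which 0 rose and 2 fell, IL18BP (-1.52 ± 0.28) and SIGIRR (-1.15 ± 0.25), a receptor that dampens IL-1 signals. Both also fell without the libraries numbered 4, when the median of the 5 was -1.17.

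Markers of cell types moved as well. In OIS 6 of 10 fibroblast markers fell and 1 rose (median -1.36), with DCN at -7.32 ± 0.29, COL3A1 at -4.79 ± 0.28 and LUM at -3.99 ± 0.71 and VIM upward at 1.10 ± 0.22. With bleomycin 7 fell and 0 rose (median -1.10; 5 and 0 without the libraries numbered 4), led by COL3A1 (-2.32 ± 0.41), COL6A3 (-2.12 ± 0.30) and DCN (-2.05 ± 0.42). The summed leukocyte and myeloid markers went from 17.6 to 44.9 CPM in ER:RAS DMSO libraries to 85.5 to 123 CPM with 4OHT, and from 12.99 to 29.8 CPM in IMR90 DMSO to 55.5 to 107 CPM with bleomycin. Most of this sum was CD68, a lysosomal protein also found outside macrophages, which rose by 1.98 ± 0.31 in OIS and 1.80 ± 0.30 with bleomycin. Of 4 such markers tested in OIS 3 rose (also CSF1R and FCER1G, at most 21 counts each in these groups), and of 3 tested with bleomycin 2 rose (also PTPRC, at most 22 counts), and 0 fell. Of the endothelial markers, 3 of 4 tested rose in OIS (CDH5, PECAM1 and VWF) and 1 fell (TEK), and with bleomycin 2 rose (PECAM1 and KDR) and 1 fell (VWF), while without the libraries numbered 4 KDR did not pass (adjusted p = 0.0883) and 2 fell. Of the epithelial markers, KRT8 fell in OIS, the only call of 3 tested, and CDH1 rose with bleomycin, the only call of 4. The counts with bleomycin for the maturation, leukocyte and myeloid, and epithelial lists were the same without those libraries. The part of these markers in the IL-1 family levels was not tested.

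The genes whose levels were most like those of a member are named for the 5 members with a mean of at least 1 CPM, as a description without a test, since all points share libraries and treatments. Over the 42 libraries, log2 CPM of IL1B was closest to that of AREG (Pearson r = 0.990), POU2F2 (0.990) and IL11 (0.989), and that of IL1A to PRDM1 (0.981), TMEM156 (0.979) and INHBA (0.979). IL33 was closest to NAMPT (0.922), PAQR5 (0.912) and MCTP1 (0.902), and IL1RAP to RELL1 (0.929), PIK3CB (0.922) and PEG10 (0.921). IL1R1 was closest to PIEZO2 (0.954), PRKAR2B (0.945) and ZNF521 (0.933). Within the 12 bleomycin libraries, after the mean of each shRNA group was subtracted, the genes closest to IL1B were the cytokines LIF (0.998), CSF3 (0.994) and CCL20 (0.992), and those closest to IL1A were ENC1 (0.992), INSYN2B (0.991) and MCL1 (0.986). The sets of 3 named for IL1B in the bleomycin libraries and over the 42 libraries had no gene in common, and neither had those for IL1A.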

How the data were processed

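Poly(A) RNA of 42 libraries of IMR90 and IMR90 ER:RAS fibroblasts was measured. The authors deposited raw read counts per gene symbol, as whole numbers without normalization, for 28266 symbols, of which 3476 had no count. The sources name different steps: the study's methods give directional single-end reads of 75 bp, Tophat, hg19 and HTSeq, whereas the submitters' processing notes name hg38, DRAGEN, STAR 2.7.8a and DESeq2 1.32.0. The order of the symbols followed GRCh38 alone in 28 adjacent pairs and GRCh37 alone in 5, so positions are from RefSeq on GRCh38.p14. Exon lengths (merged exons of a gene) are from GENCODE on GRCh37. How reads of overlapping genes were counted is not given in the sources used here.

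Groups came from the labels. Counts were filtered (filterByExpr), scaled (TMM) and tested in R 4.3.3 with edgeR 4.0.16 and its robust, two-sided quasi-likelihood test, with Benjamini-Hochberg adjustment over all genes tested and a threshold of 0.05. Each line shared a single fit of its 6 groups (18 and 24 libraries), the difference between lines used all 42 libraries, and the replicate number was tested within each state. CPM are TMM-scaled over the 42 libraries, and log2 values of libraries carry a prior count of 2. Where every library of a group had 3 counts or fewer, the fold is a bound that sets the mean of the other group against 3 counts per library. Totals of 13148194 to 23597310 counts set the precision. The code was tested on simulated counts.

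Same-numbered libraries deviated together within IMR90 bleomycin (12 of 12 correlations over 0.1, 0.377 to 0.784) and within IMR90 DMSO (12 of 12, 0.101 to 0.805), so the numbers were taken to pair the IMR90 knockdown comparisons. Not all correlations were over 0.1 between treatment and DMSO (7 of 9 in ER:RAS, 7 of 12 in IMR90). The same held between the ER:RAS groups within a state (7 of 9 in each), so the numbers were not taken to pair these comparisons. Still, 42% of genes with 4OHT and 55.6% in ER:RAS DMSO passed the test of the replicate number. With the number as a block, 50.9% of genes passed in OIS with the control shRNA, against 35.7% without it. No pair of the 54 compared within groups agreed within sampling noise (chi-square over its degrees of freedom 6.89 to 307).

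The members, gene lists, naming rule and alternatives were chosen with earlier results of these data known. The rule names the 9 members, up to 3 genes with the largest absolute change per list and direction in the control shRNA comparisons, COPB2, and the 3 genes most like a member. Alternatives were DESeq2 size factors, no filter, the test of DESeq2 1.42.0, a block for the replicate number, a fit restricted to the libraries compared, a prior count of 0.5, the longest transcript, leaving out the 6 IMR90 libraries numbered 4, and leaving out each library.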

Additional observations from a re-analysis of the deposited data

Results flagged for a closer look

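In 6 of 47 sets of a member and a group of 4 libraries, a library stood apart from the rest of its group on the log2 scale beyond the 95% critical value of Dixon's test. Chance flags about 1 in 20 such groups. In 4 of the 6 it was replicate 4 of a bleomycin group and the highest: IL1B with COPB2 shRNA 1 (591.4 CPM), IL33 with COPB2 shRNA 1 (41.2 CPM), and IL1R1 with the control shRNA (398.7 CPM) and with COPB2 shRNA 1 (534.1 CPM). In the others it was replicate 1 of an IMR90 DMSO group and the lowest: IL1RAP with the control shRNA (2.932 CPM) and IL18 with COPB2 shRNA 1 (0.05347 CPM, 1 count).

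The response to 4OHT differed from the response to bleomycin, with the control shRNA, for IL1A (6.04 on the log2 scale), IL1B (7.67) and IL18 (-3.42). The first pair was higher in OIS and IL18 was lower. The IL18 value is a fitted one that depends on the prior count, since IL18 had at most 1 count in each 4OHT library. The mean in ER:RAS DMSO was only 1.32-fold above the floor of those libraries. That value rested on the highest DMSO library (0.577 CPM).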

How the results depend on the processing

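The count of members called stayed within 1.5 times its value except as follows. Without the filter on low counts, 8 members passed in OIS with COPB2 shRNA 1, where 24.4% of all genes passed (5 members and 36.9% as reported). In the test of the replicate number in ER:RAS DMSO, 1 passed with DESeq2 size factors (56% of all genes) and 0 with the DESeq2 test (55.7%). As reported, 2 passed (55.6%). Leaving out single libraries gave 0 to 4 members in that test, 0 to 6 in ER:RAS 4OHT and 1 to 3 in the difference between both responses. For most of these the cause was not tested, but without the filter more genes enter the test.

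With the replicate block, IL1RAP passed in OIS with shRNA 1 (1.23) and shRNA 2 (1.16), IL33 in OIS with shRNA 2 (2.48) and IL1R1 with bleomycin and the control shRNA (-1.10), and no other member changed its call. The block also raised the share of all genes that passed. In OIS it went from 36.9% to 53.2% with shRNA 1 and from 36.9% to 53.1% with shRNA 2. With bleomycin and the control shRNA it went from 31.2% to 40.9%. With only the libraries compared, IL1RAP missed the threshold in OIS with the control shRNA (1.80, adjusted p = 0.0626), and without the filter IL33 missed it with bleomycin and shRNA 2 (3.43, adjusted p = 0.0546). The difference of responses fell from 3 members to 2 in both settings, without IL1A when the filter was dropped (adjusted p = 0.0697) and without IL18 with only the libraries compared (adjusted p = 0.104). Of all genes, 10.8% passed without the filter and 14.3% with only the libraries compared. With only the libraries compared the members called with bleomycin went from 4, 6 and 6 to 3, 5 and 4, since IL1RL1 and, with shRNA 2, IL1A had too few reads to be tested. The shares of all genes that passed were 24.5%, 36.1% and 27.1% there. Per longest transcript, 18 of 34 levels per kilobase moved by over 1.5 times. Over all alternatives, values of the standard deviation within groups moved that much in 14 cases and not in 411. With single libraries left out, those with bleomycin ran from 1.91 to 2.43 for IL1A, 1.42 to 2.21 for IL1B and 1.46 to 2.06 for IL33. With 4OHT, that of IL1A ran from 0.388 to 0.701. Directions reversed for values that never passed: in bleomycin with shRNA 1 against the control shRNA, without the libraries numbered 4, IL1A was at -0.040 and IL1B at -0.089. Leaving out single libraries took these to between -0.70 and 2.81 for IL1A, -1.31 and 3.47 for IL1B and -1.56 and 3.20 for IL33. With shRNA 2 the ranges were -0.30 to 2.29 for IL1B and -1.20 to 2.25 for IL33. IL1R1 with bleomycin and shRNA 1 ran from -1.36 to 0.093, and the difference of responses for IL1RAP from -0.026 to 1.09. IL1R2, IL1RL1 and IL18 had few reads in most groups, which limits the size that can be given for their differences.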
